A study of Homo sapiens with 6 samples.

Results

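Transcripts of bone morphogenetic protein (BMP) signalling and of the ID genes were described in DU145, an established line of human prostate cancer cells, after depletion of E6AP, the ubiquitin ligase encoded by UBE3A. The members were 10 genes picked by symbol, namely the ligands BMP2, BMP4 and BMP7, the receptors BMPR1A and BMPR2, the inhibitory SMADs SMAD6 and SMAD7, and the targets ID1, ID2 and ID3. Of these, 9 had a row among the 33835 named genes of the count table and 9 passed the filter on low counts, while BMP2 was not analysed here. The list was drawn up with results of the shE6AP and wobble comparison in view, so the levels and fold changes of the members are given as a description, with no test.

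Cells transduced with a short hairpin against E6AP (shE6AP, 3 libraries) were set against cells transduced with its wobble control (wobble, 3 libraries). Doxycycline, which switches the hairpin on, was present in both groups at 0.2 µg/ml for 2.5 days. The labels give no sequence for the wobble control, do not say whether a group is a pool or a clone, and do not say whether libraries of a group come from separate cultures, so a p-value reflects no more than the spread among the libraries at hand, and that spread could be technical. The comparison addresses which transcripts differ between shE6AP and wobble cells. An effect of E6AP depletion and other differences between the groups cannot be told apart.

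BMPs are secreted ligands that bring together type I receptors such as BMPR1A and type II receptors such as BMPR2. The active receptor phosphorylates SMAD1, SMAD5 and SMAD9, which enter the nucleus with SMAD4 and switch on target genes, among them ID1, ID2, ID3, SMAD6 and SMAD7. ID proteins hold basic helix-loop-helix (bHLH) transcription factors away from DNA, while SMAD6 and SMAD7 act back on the receptors as inhibitors. Prostate cancer cells are known both to make BMPs and to respond to them.

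Because ID1, ID2, ID3 and SMAD6 are classic targets of this pathway, the 300 bases around their annotated starts, 250 before and 50 after, are printed 5′ to 3′ from RefSeq (GRCh38.p14). The windows are chr20:31605039-31605338 on the plus strand for ID1, chr2:8681806-8682105 on the plus strand for ID2, chr1:23559452-23559751 on the minus strand for ID3 and chr15:66701986-66702285 on the plus strand for SMAD6. Capitals mark matches, on either strand, to GGCGCC or GGAGCC, the GC-rich letters bound by SMAD1 and SMAD5, or to the SMAD palindrome GTCTAGAC; no match overlaps another.
ID1: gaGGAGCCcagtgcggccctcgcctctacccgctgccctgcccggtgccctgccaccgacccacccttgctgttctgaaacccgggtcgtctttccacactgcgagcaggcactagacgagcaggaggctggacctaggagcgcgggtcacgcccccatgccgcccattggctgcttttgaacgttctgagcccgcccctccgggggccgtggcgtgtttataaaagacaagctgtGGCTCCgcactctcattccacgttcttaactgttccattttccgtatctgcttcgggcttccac
ID2: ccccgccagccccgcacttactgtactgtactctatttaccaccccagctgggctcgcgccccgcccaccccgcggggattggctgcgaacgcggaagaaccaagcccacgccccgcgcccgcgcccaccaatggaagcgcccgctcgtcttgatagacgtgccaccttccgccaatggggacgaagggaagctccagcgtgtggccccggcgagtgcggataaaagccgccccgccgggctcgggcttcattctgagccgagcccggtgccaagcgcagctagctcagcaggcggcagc
ID3: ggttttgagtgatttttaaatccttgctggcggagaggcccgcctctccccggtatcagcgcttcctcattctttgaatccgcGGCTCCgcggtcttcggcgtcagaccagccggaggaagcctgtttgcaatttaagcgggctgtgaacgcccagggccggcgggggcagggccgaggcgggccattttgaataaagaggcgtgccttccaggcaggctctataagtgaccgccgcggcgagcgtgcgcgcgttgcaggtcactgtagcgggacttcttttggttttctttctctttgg
SMAD6: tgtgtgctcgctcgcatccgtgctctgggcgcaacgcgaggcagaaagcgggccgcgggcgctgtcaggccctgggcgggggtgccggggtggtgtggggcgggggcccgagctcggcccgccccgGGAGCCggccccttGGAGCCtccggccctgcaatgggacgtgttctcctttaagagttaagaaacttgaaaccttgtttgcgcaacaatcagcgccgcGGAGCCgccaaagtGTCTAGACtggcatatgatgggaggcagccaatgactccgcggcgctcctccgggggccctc

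ID1 held GGAGCC at 2 places, ID3 at 1 and SMAD6 at 3, while the ID2 window held none of the 3 motifs. Over all 35116 RefSeq promoter windows of this length, 36.0% held GGAGCC and 19.2% held GGCGCC. SMAD6 also held the palindrome GTCTAGAC, starting 12 bases before the annotated start, which 0.202% of all windows held. RefSeq windows were found for 8 of the 10 members, and BMP7 and BMP2 are only named. Among the windows not printed, the 3 of BMP4 held GGCGCC at 2 places and GGAGCC at 1. The window of BMPR2 held GGCGCC at 1 place and GGAGCC at 2, the 3 windows of SMAD7 held GGAGCC at 2 places, and the window of BMPR1A held none. A match describes letters in a window and is not a binding site.

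The libraries held 21558506 to 28228823 reads on genes in shE6AP and 27336700 to 30488217 in wobble. UBE3A, the targeted gene, stood at 14.2, 14.5 and 15.0 CPM in shE6AP, against 54.1, 55.4 and 57.9 CPM in wobble (log2 fold change -1.94, SE 0.0512, adjusted p = 2.52e-31 in the quasi-likelihood test of edgeR, Benjamini-Hochberg). CPM give the reads of a gene relative to the TMM-scaled number of reads on all genes in its library. The epithelial markers KRT8, KRT18, EPCAM and CDH1 summed to 859 to 888 CPM in shE6AP and 705 to 731 CPM in wobble, mostly KRT8 and KRT18. They did not move together. KRT8, KRT18 and EPCAM were higher in shE6AP, EPCAM at 36.4 against 17.7 CPM, while CDH1 was lower, at 27.1 against 30.1 CPM. Marker sums were 17.3 to 19.0 CPM in shE6AP and 13.3 to 16.4 CPM in wobble for fibroblasts (5 of 5 with a row, mostly COL1A1, with DCN at most 0.208 CPM), 0.562 to 0.667 and 0.231 to 0.415 CPM for endothelial cells (2 of 3), and 2.58 to 3.55 and 1.33 to 1.80 CPM for blood cells (3 of 4, with PTPRC at most 0.421 CPM). The part of these marker shifts in the results below was not tested. In bulk RNA, fewer cells expressing a gene and less RNA per cell cannot be told apart.

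All 9 members measured had a lower mean in shE6AP than in wobble, by a margin that ran from 16.4-fold for BMP7 to 1.09-fold for BMPR1A. The ligands stood lowest relative to wobble, followed by ID2 and ID3, then SMAD6 and ID1, with both receptors and SMAD7 nearest to the wobble level. The median log2 fold change of the 9 was -0.88, beside 0.0084 over the 19433 genes tested. By edgeR's adjusted p under 0.05, 8 of the 9 were lower and none higher, where 30.4% of all genes tested were called lower and 59% called in either direction. Groups did not overlap, with shE6AP lower, for 8 members, beside 31.9% of all genes. At least a halving together with an adjusted p under 0.05 (edgeR) was seen for 4 members, beside 3.51% of all genes. Against a null fold of 1.5 (edgeR's glmTreat), 6 members were lower, beside 5.24% of all genes. The members were chosen with this comparison known, so nothing is read from these counts.

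**Figure D1:**
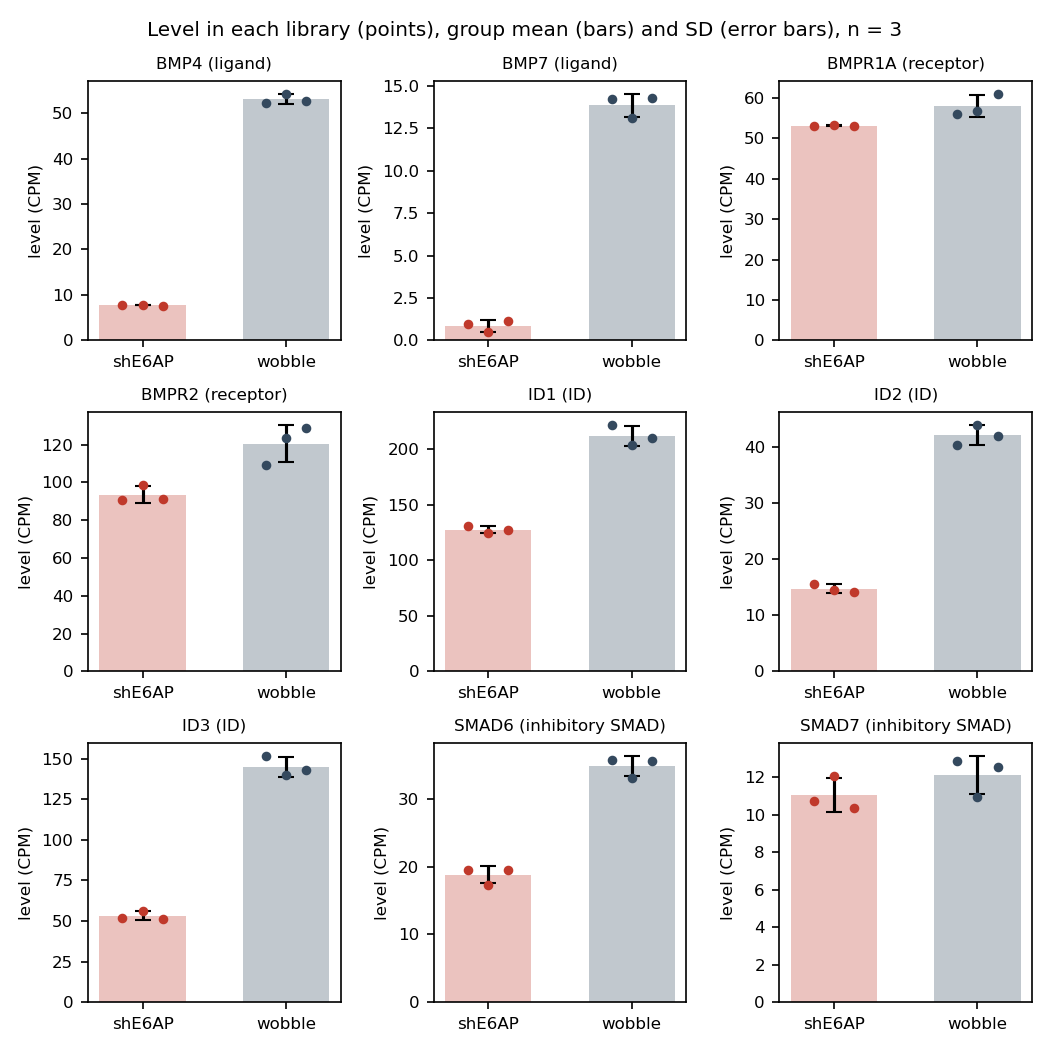
Level in CPM (vertical axis, from 0) of each of the 9 members in shE6AP and wobble; points are libraries, bars the mean and error bars the SD (n = 3 each). BMP4 averages 7.76 CPM in shE6AP and 53.0 CPM in wobble, while SMAD7 averages 11.1 and 12.1 CPM with overlapping points.

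Of the ligands, BMP7, known for its roles in kidney and skeletal development, had 0.947, 0.468 and 1.13 CPM in shE6AP libraries 1 to 3, against 14.2, 13.1 and 14.3 CPM in wobble libraries 1 to 3. These values rest on 27, 10 and 27 reads in shE6AP, against 430, 378 and 387 reads in wobble. Every shE6AP library lay far below every wobble library, and the lowest value, in shE6AP library 2, was still above the 0.141 CPM that 3 reads are worth there. The shE6AP mean was 6.11% of the wobble mean, and the log2 fold change of -3.99 (SE 0.137) was lower than that of all but 21 of the genes tested.

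BMP4, a ligand that BMPR1A and BMPR2 bind, had 7.82, 7.77 and 7.67 CPM in shE6AP, against 52.2, 54.2 and 52.6 CPM in wobble. Libraries of a group were nearly level, and the groups stood far apart. Its mean was 7.76 ± 0.0745 CPM in shE6AP and 53.0 ± 1.07 CPM in wobble (SD, n = 3 each), so that 14.6% of the wobble level was present. The log2 fold change was -2.77 (SE 0.0575).

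Both receptor members differed little between the groups. BMPR2, the type II receptor specific for BMPs, had 90.6, 98.9 and 91.2 CPM in shE6AP, against 109, 124 and 129 CPM in wobble (log2 fold change -0.37, SE 0.0430). The groups did not overlap, with wobble library 1 nearest to the shE6AP values, and the reads of BMPR2 varied within groups by 14.6 times the variance of counting alone, the widest of any member. BMPR1A, a type I receptor, had 52.9, 53.2 and 53.1 CPM in shE6AP, against 56.0, 56.8 and 61.0 CPM in wobble (log2 fold change -0.13, SE 0.0413). All shE6AP libraries lay just below the lowest wobble library. BMPR1A has 2 pseudogene copies in the table, BMPR1APS1 at 1.38 ± 0.259 CPM in shE6AP and 1.73 ± 0.347 CPM in wobble, and BMPR1APS2 at 2.33 ± 0.135 and 2.98 ± 0.0297 CPM (SD, n = 3), with which its reads may be split.

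Of the ID genes, ID1 and ID3 had the highest levels per exon length of all members in both groups. ID1 had 131, 124 and 127 CPM in shE6AP, against 222, 204 and 210 CPM in wobble (log2 fold change -0.73, SE 0.0354). ID3 had 52.2, 56.3 and 51.0 CPM in shE6AP, against 152, 140 and 143 CPM in wobble (log2 fold change -1.45, SE 0.0404). ID2 had 15.6, 14.5 and 14.1 CPM in shE6AP, against 40.4, 44.0 and 41.9 CPM in wobble (log2 fold change -1.51, SE 0.0549). For each of these genes every shE6AP library lay below every wobble library, with 60.1% of the wobble mean present for ID1, 36.7% for ID3 and 35.1% for ID2. An annotated antisense gene, ID2-AS1, overlaps ID2 and was not analysed here; without strand, its reads cannot be told from those of ID2. ID4, the remaining gene of the family, had 1 read in wobble library 2 and none in the other libraries.

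The inhibitory SMADs parted. SMAD6, which acts mainly on BMP receptors, had 19.6, 17.3 and 19.4 CPM in shE6AP, against 35.7, 33.1 and 35.6 CPM in wobble. The groups were well separated, with a log2 fold change of -0.88 (SE 0.0548). SMAD7, which acts on TGF-beta and BMP receptors alike, had 10.8, 12.1 and 10.3 CPM in shE6AP, against 12.9, 11.0 and 12.5 CPM in wobble. Here shE6AP library 2 lay above wobble library 2, and the log2 fold change of -0.14 (SE 0.0774) was small beside the spread. The difference between SMAD6 and SMAD7 was not tested.

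**Figure D2:**
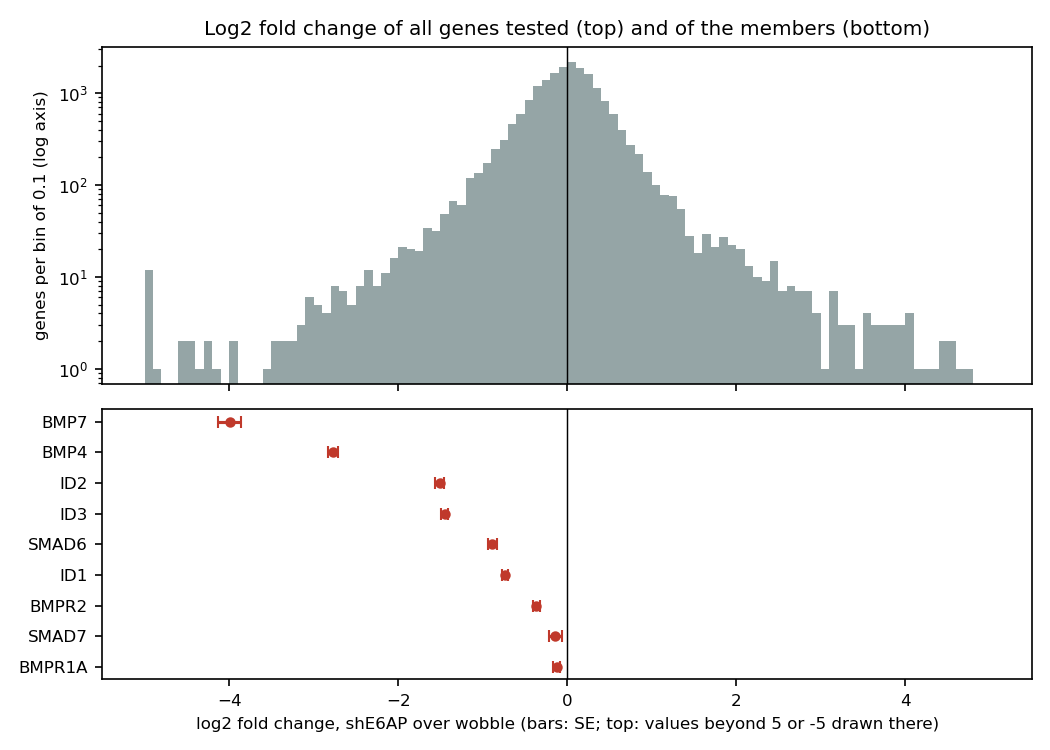
Histogram of log2 fold changes, shE6AP over wobble, for the 19433 genes tested (top; vertical axis, genes per bin on a log scale) above the 9 members on the same horizontal axis (points, with SE as bars). The members run from -3.99 for BMP7 to -0.13 for BMPR1A, with none to the right of 0.

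Levels of different genes were set side by side as RPKM, CPM per kilobase of exon, with exon lengths from GENCODE v29. In shE6AP the order was ID1 (103 RPKM), ID3 (42.5), BMPR2 (8.16), ID2 (6.89), SMAD6 (4.90), BMPR1A (4.72), BMP4 (3.69), SMAD7 (2.44) and BMP7 (0.201 RPKM). In wobble it was ID1 (172 RPKM), ID3 (116), BMP4 (25.2), ID2 (19.6), BMPR2 (10.5), SMAD6 (9.08), BMPR1A (5.15), BMP7 (3.28) and SMAD7 (2.68 RPKM). Thus BMP4 was the third highest member in wobble and the seventh in shE6AP. SMAD6 and BMPR1A could not be ordered in shE6AP, where the BMPR1A libraries lay inside the SMAD6 range of 4.52 to 5.10 RPKM.

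Among ligands of the BMP family, BMP4 gave the largest share of the summed level in both groups, and a smaller one in shE6AP than in wobble. The sum over the 11 ligands with a row and an exon length was 8.39 ± 0.320 RPKM in shE6AP and 34.9 ± 0.0613 RPKM in wobble (SD, n = 3 each). BMP4 held 44.0 ± 1.77% of that sum in shE6AP and 72.3 ± 1.37% in wobble, and BMP7 held 2.42 ± 1.02% and 9.42 ± 0.466%. BMP8B held 33.4 ± 1.42% in shE6AP and 13.3 ± 0.605% in wobble. BMP2 is not in these sums.

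Within the ID family the balance leaned further to ID1 in shE6AP. Summed ID levels were 153 ± 2.45 RPKM in shE6AP and 307 ± 11.4 RPKM in wobble. ID1 held 67.7 ± 1.39% of the sum in shE6AP and 55.9 ± 0.342% in wobble, while ID3 held 27.8 ± 1.45% and 37.6 ± 0.199%. ID2 held 4.51 ± 0.172% in shE6AP and 6.40 ± 0.500% in wobble (SD, n = 3 each).

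Summed levels of the type I and type II receptors differed less, at 24.7 ± 0.156 RPKM in shE6AP and 27.3 ± 1.27 RPKM in wobble. BMPR2 gave 33.0 ± 1.41% of that sum in shE6AP and 38.4 ± 1.41% in wobble, and BMPR1A 19.1 ± 0.0808% and 18.9 ± 0.541%. ACVR1, another type I receptor, gave 34.1 ± 1.14% in shE6AP and 30.6 ± 1.07% in wobble (SD, n = 3 each).

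**Figure D3:**
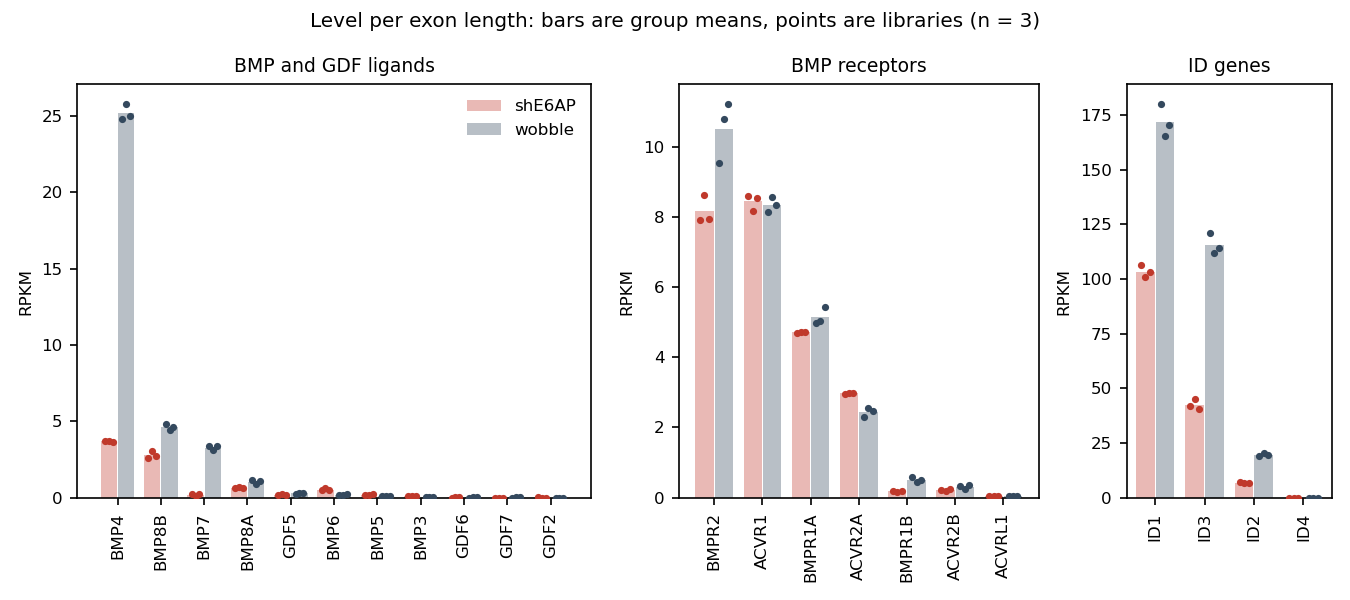
RPKM (vertical axes, from 0, different scales) of ligands, receptors and ID genes in shE6AP and wobble; bars are means and points the 3 libraries of a group. BMP4 averages 3.69 RPKM in shE6AP and 25.2 RPKM in wobble, and ACVR1 8.45 and 8.35 RPKM.

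The rest of the pathway, outside the members, moved both ways. These genes were listed by pathway membership, but with earlier results of these data known, so their calls and adjusted p are descriptive. Most of those named below were taken by smallest p. Of 81 other genes listed, 76 had a row and 56 passed the filter; 23 of these rose and 24 fell in shE6AP (edgeR's quasi-likelihood test, adjusted p under 0.05 over all genes), with 9 not passing. Over all genes tested, 28.6% rose and 30.4% fell, and the 56 genes had a median log2 fold change of -0.056. Against a null fold of 1.5, 4 rose and 8 fell, beside 787 rising and 1019 falling of the 19433 genes tested.

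Of 6 other ligands tested, 3 rose, 2 fell and 1 did not pass, with a median log2 fold change of 0.03. BMP6 rose to 1.47 ± 0.186 CPM in shE6AP, against 0.526 ± 0.118 CPM in wobble (log2 fold change 1.48, SE 0.242, adjusted p = 1.01e-06, edgeR). BMP8B fell to 13.5 ± 1.10 CPM in shE6AP, against 22.4 ± 0.980 CPM in wobble (log2 fold change -0.74). BMP8A fell to 1.11 ± 0.102 CPM in shE6AP, against 1.78 ± 0.236 CPM in wobble; BMP8A and BMP8B are near-identical copies, so the split of reads between them is uncertain.

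Of 9 other receptors and co-receptors tested, 5 rose, 2 fell and 2 did not pass, with a median of 0.29. BMPR1B, the type I receptor closest to BMPR1A, fell to 1.10 ± 0.107 CPM in shE6AP, against 2.99 ± 0.421 CPM in wobble (log2 fold change -1.43, SE 0.176). NEO1, neogenin, a receptor for the RGM co-receptors, rose to 202 ± 3.20 CPM in shE6AP, against 151 ± 0.783 CPM in wobble (log2 fold change 0.42, SE 0.0327). The co-receptors RGMB, TGFBR3 (betaglycan) and ENG (endoglin) rose by 0.31, 0.37 and 0.54 on the log2 scale. ACVR1 did not pass, at 29.8 ± 0.815 CPM in shE6AP and 29.5 ± 0.777 CPM in wobble. Adjusted p among the genes called here and named ran from 6.70e-15 for NEO1 to 5.12e-05 for RGMB (edgeR).

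Extracellular antagonists and modulators were 4 higher, 5 lower and 5 not passing of 14 tested, with a median of -0.11. CHRD, chordin, which binds BMPs and keeps them from their receptors, fell to 5.24 ± 0.130 CPM in shE6AP, against 11.4 ± 0.208 CPM in wobble (log2 fold change -1.11, SE 0.0861, adjusted p = 4.67e-15, edgeR). BMP1, a protease that cleaves chordin and is no BMP ligand despite its name, rose to 157 ± 2.04 CPM in shE6AP, against 94.4 ± 2.30 CPM in wobble (log2 fold change 0.73, SE 0.0347, adjusted p = 3.70e-22, edgeR). TWSG1, which binds BMPs with chordin, and BMPER, another BMP-binding protein, rose by 0.37 and 0.84 on the log2 scale. NBL1, an antagonist of the DAN family, fell by 0.56 on the log2 scale. CRIM1, a membrane protein that binds BMPs, did not pass and was abundant, at 671 ± 12.2 CPM in shE6AP and 681 ± 19.4 CPM in wobble.

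Among SMADs and their regulators, 8 rose and 8 fell of 16 tested, with a median of -0.0031. Of the signal-carrying SMADs, SMAD1 rose to 26.7, 29.1 and 26.3 CPM in shE6AP, against 16.0, 17.1 and 17.1 CPM in wobble (log2 fold change 0.71, SE 0.0574, adjusted p = 2.16e-14, edgeR). SMAD9 fell to 8.35, 8.24 and 8.80 CPM in shE6AP, against 15.8, 15.9 and 17.6 CPM in wobble (log2 fold change -0.96, SE 0.0739, adjusted p = 4.62e-15, edgeR). Neither gene's groups overlapped. SKIL, which encodes the SMAD corepressor SnoN, fell to 19.5 ± 1.02 CPM in shE6AP, against 53.3 ± 3.18 CPM in wobble (log2 fold change -1.46, SE 0.0521). SMURF2, a HECT ligase that acts on SMADs and their receptors, fell by 0.64 on the log2 scale, and TOB1, an antiproliferative protein that binds SMADs, rose by 0.71.

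Other BMP-responsive genes were 3 higher and 4 lower of 7 tested, with a median of -0.55. The homeobox genes MSX1 and MSX2 moved apart. MSX1 fell to 0.842, 0.843 and 1.00 CPM in shE6AP, against 3.60, 2.91 and 3.73 CPM in wobble (log2 fold change -1.93, SE 0.179, adjusted p = 1.20e-12, edgeR). MSX2 rose to 3.23, 3.89 and 3.38 CPM in shE6AP, against 0.165, 0.104 and 0.148 CPM in wobble, where it had 5, 3 and 4 reads (log2 fold change 4.60, SE 0.260, adjusted p = 1.58e-19, edgeR). GATA2 and ATOH8, transcription factors of the zinc finger and bHLH classes, fell by 0.64 and 0.57 on the log2 scale. HES1, a bHLH repressor better known as a Notch target, had 15.7, 16.3 and 23.6 CPM in shE6AP, against 11.0, 10.3 and 16.3 CPM in wobble. Its groups overlapped, with library 3 the highest in each, though each shE6AP library lay above the wobble library of the same number. The log2 fold change of 0.57 (SE 0.109, adjusted p = 1.51e-05, edgeR) did not pass with DESeq2 (adjusted p = 0.0804). It ran from 0.36, without shE6AP library 3, to 0.79 with another library left out.

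Of the bHLH factors listed as E proteins or their dimer partners, which ID proteins hold back, 3 fell, none rose and 1 did not pass of 4 tested, with a median of -0.29. TCF3, which encodes the E proteins E12 and E47, fell to 159 ± 1.41 CPM in shE6AP, against 223 ± 5.53 CPM in wobble (log2 fold change -0.49, SE 0.0330, adjusted p = 5.95e-17, edgeR). LYL1, a bHLH factor of blood development, fell to 2.82 ± 0.432 CPM in shE6AP, against 6.11 ± 0.378 CPM in wobble (log2 fold change -1.11, SE 0.119). TCF12, the E protein HEB, fell by 0.09 on the log2 scale, a call that ended with upper-quartile scaling (adjusted p = 0.128), with DESeq2 (0.0689), without shE6AP library 1 (0.196) and without wobble library 2 (0.0617).

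**Figure D4:**
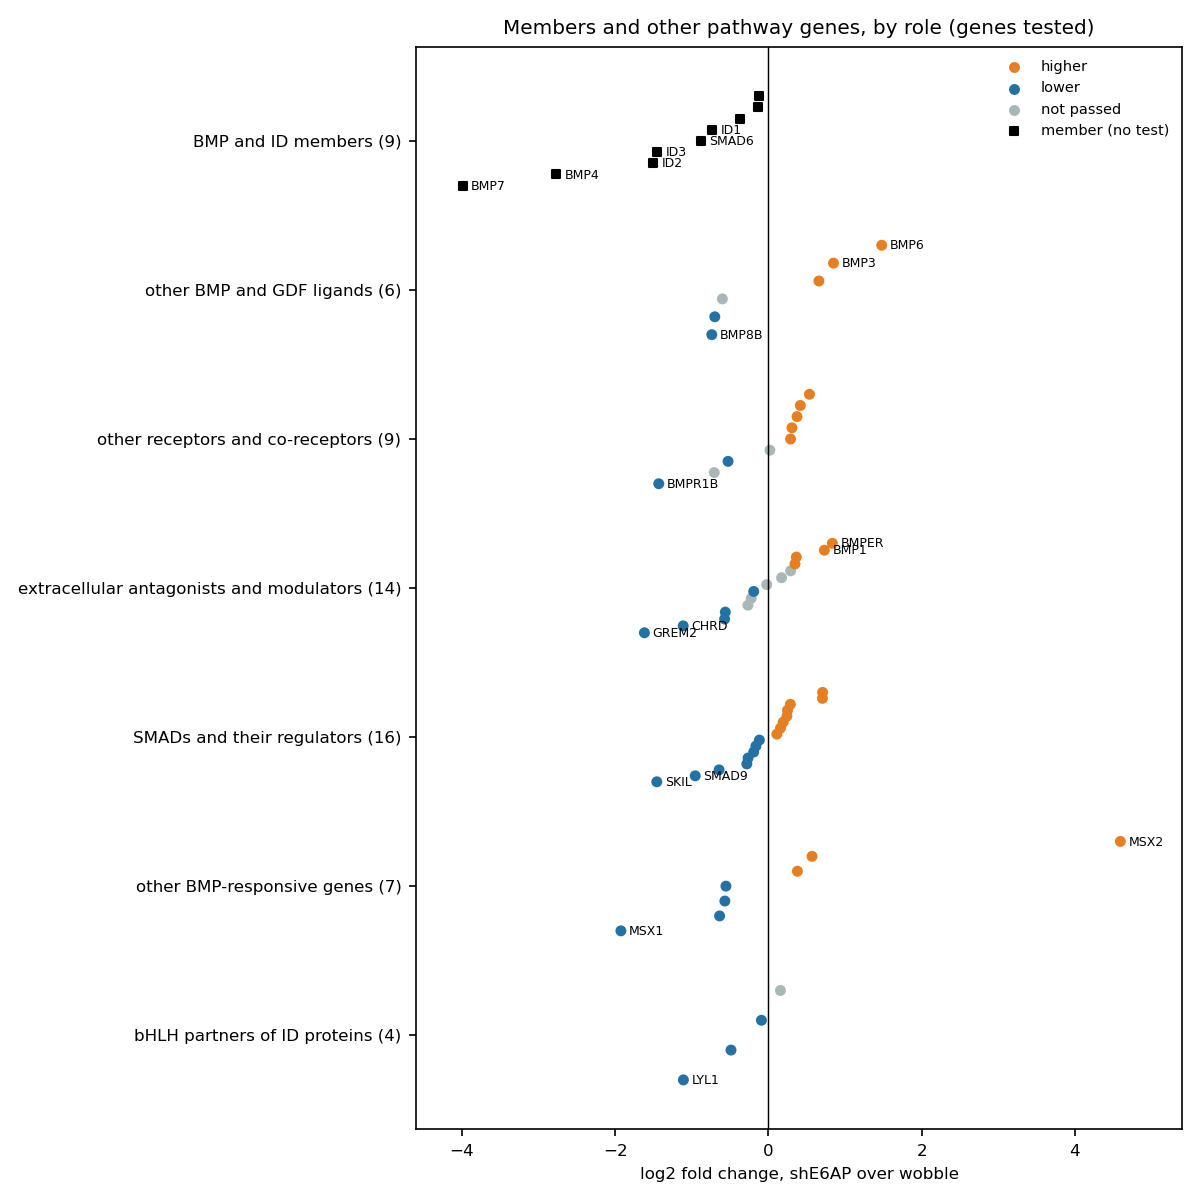
Log2 fold changes, shE6AP over wobble, on the horizontal axis for the 9 members (squares) and for the other pathway genes tested, by role (circles, orange where a gene rose, blue where it fell, grey where it did not pass). All squares lie left of 0, whereas SMADs and their regulators hold 8 genes on each side.

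The genes whose profile over the 6 libraries was nearest to that of a member were sought for BMP7, BMP4 and ID2, which had the largest fold changes. Likeness was the root mean square difference of centred log2 CPM, among 12375 genes with a mean of at least 5 CPM over all 6 libraries, a filter that a gene could pass through its wobble level alone. For BMP7 these were SAMD11 (0.387), KIF1A (0.464) and FAM127C (0.481). For BMP4 they were C8orf46 (0.0720), WDR86 (0.0737) and ALPP (0.0804), and for ID2 they were RAP2B (0.0280), DOCK11 (0.0459) and PDE12 (0.0460). With only 2 groups, likeness mostly reflects a similar fold change.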

How the data were processed

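RNA was extracted with TRIzol and libraries were made with version 2 of the TruSeq kit, per the labels' protocols. The submitters' processing notes name hg19, Bowtie2, TopHat2 2.0.13 and HTSeq; annotation and strand setting: not given in the sources used here. The authors' deposited table holds whole-number read counts per gene, not normalized. Left out were 2 summary rows (14.6% to 16.0% of reads outside genes, 2.05% to 2.21% ambiguous), 1 row with no name (at most 4.59e-05%) and 1 with no values.

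Counts were fitted with edgeR 4.0.16 in R 4.3.3 (filterByExpr, TMM, quasi-likelihood test, group as the only term), with Benjamini-Hochberg adjustment over 19433 genes and a threshold of 0.05. SE is the log2 fold change divided by the root of the F statistic. Exon lengths were unions of GENCODE v29 basic exons (GRCh38, not the authors' annotation), which can shift levels between genes. A chi-square per gene of 1.68 to 3.27 between libraries of a group exceeded counting noise, so none was treated as a library deposited again; this does not show that they are separate cultures. Alternatives were DESeq2 1.42.0, limma-voom (limma 3.58.1), scaling by library totals, by RLE or by upper quartiles, other filters, a block for replicate number, leaving out each library, and glmTreat against a fold of 1.5. Scripts were tested on simulated data.

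The members and lists were chosen with earlier results of these data known, the lists by pathway membership. Named outside the members were UBE3A, up to 5 genes per list past the threshold at 1 CPM or more, by smallest p, up to 2 per list not passing at 20 CPM or more, and 3 nearest profiles for each of 3 members. Levels of 3 reads cover counting error only. A further marker list is not reported here.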

Additional observations from a re-analysis of the deposited data

How the results depend on the processing

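No member changed direction under any scaling, test, filter, block or left-out library. The fold change of BMP7 ran from -4.22 to -3.75, that of BMP4 from -2.79 to -2.74, and that of SMAD7 from -0.21 to -0.10. The count of members called stayed at 8, except 6 against a null fold of 1.5, 7 without wobble library 3 (BMPR1A) and 9 without shE6AP library 2 or without wobble library 2 (SMAD7). The members were chosen with this comparison known, so these counts only describe how the calls vary with the settings. Against a null fold of 1.5, 1806 genes were called, 787 higher and 1019 lower, and 12 other pathway genes, 4 higher and 8 lower. With a library left out, 10708 to 11084 genes, 43 to 47 other pathway genes and 7 to 9 members were called, and UBE3A ran from -1.97 to -1.92. ACVR1, not called, was at -0.0028 without a low-count filter and -0.0040 without wobble library 1 (up to 0.037 with another library left out), and CRIM1, not called, at 0.0070 with upper-quartile scaling; the cause was not tested. With the replicate number as a block, 11979 genes and 8 members were called. Deviations of same-numbered libraries correlated at 0.0166 to 0.0438 and those of other pairs at -0.0325 to -0.00567, so each library correlated best with its own number. Libraries were not paired in the main fit, and whether a number marks a shared batch was not tested. Under other scalings the median log2 fold change over all genes shifted by at most 0.0283. BMP7 in shE6AP rests on 10 to 27 reads a library, which limits its fold change more than that of any other member.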
